A study of Mus musculus with 3 samples.

Results

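The cells described here are the terminal myofibroblasts of the mouse lung at postnatal day 7, without a subset that held no Pdgfra transcripts and much Hhip. They were chosen by 2 measured values on top of the authors' annotation: they are the cells the authors annotated as MyoFB-Ter, in any sort gate, leaving out each cell with 0 Pdgfra UMIs (unique molecular identifiers, each standing for 1 captured transcript) and Hhip at 1000 or more UMIs per 1e6. That left 414 of 516 MyoFB-Ter cells, of 6142 cells in all. All pups carried Fgf18CreERT2/+, ROSATDTomato/+ and PdgfraEGFP/+, so that tamoxifen given from day 2 to day 5 turned on tdTomato in cells using Fgf18, and GFP reported Pdgfra. No library came from pups without these alleles or without tamoxifen, all 3 alleles were heterozygous, and tdTomato marks cells in which the Fgf18 locus drove Cre while tamoxifen was present. How many pups a library holds was not given in the sources used here. Live lung mesenchyme was sorted by both reporters into 3 gates, each giving 1 library. The GFP-low gate, negative for tdT, held 6 terminal cells, and the GFP-high gates held 297 in the tdT-negative and 111 in the tdT-high library. The comparison groups were the other myofibroblast annotations of the same gate, MyoFB-Int (22, 1324 and 801 cells) and MyoFB-IMR (21, 1032 and 467 cells).

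Alveolar myofibroblasts lie at the tips of the septa that divide the newborn lung's air sacs. They lay down elastin, hold contractile filaments and are largely lost once the septa have formed. Pdgfra, the receptor for platelet-derived growth factor A, marks their precursors, and Fgf18 is a growth factor made by these cells and needed for lung septation. Asporin (Aspn) is a small leucine-rich proteoglycan of the matrix that binds collagen and transforming growth factor beta, and smooth muscle actin (Acta2) and elastin (Eln) are their classic contractile and matrix products.

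Promoter sequences are shown for 4 genes that the results turn on: Gja1 (connexin 43, a gap junction protein) and Aspn, which ranked first and second over MyoFB-Int by the smaller of the ratios in the 2 GFP-high libraries, among genes counted in both, Fgf18, whose locus drives the Cre, and Acta2. Each runs from 250 bases before to 50 bases after the gene's start in RefSeq on GRCm38.p6, and capitals mark CArG boxes, the motif bound by serum response factor, with at most 1 mismatch in the A/T core.
Aspn, chr13:49544193-49544492, plus strand: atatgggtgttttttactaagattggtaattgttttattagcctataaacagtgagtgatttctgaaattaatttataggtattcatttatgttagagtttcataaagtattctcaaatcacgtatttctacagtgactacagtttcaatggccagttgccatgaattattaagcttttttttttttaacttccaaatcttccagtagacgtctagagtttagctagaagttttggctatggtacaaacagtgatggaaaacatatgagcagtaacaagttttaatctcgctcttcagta
Gja1, chr10:56377050-56377349, plus strand: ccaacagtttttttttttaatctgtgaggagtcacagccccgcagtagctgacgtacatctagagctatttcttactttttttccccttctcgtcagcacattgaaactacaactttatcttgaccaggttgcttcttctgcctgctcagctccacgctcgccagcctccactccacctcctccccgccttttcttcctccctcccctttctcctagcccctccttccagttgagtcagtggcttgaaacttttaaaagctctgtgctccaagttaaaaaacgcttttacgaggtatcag
Fgf18, chr11:33147351-33147650, minus strand: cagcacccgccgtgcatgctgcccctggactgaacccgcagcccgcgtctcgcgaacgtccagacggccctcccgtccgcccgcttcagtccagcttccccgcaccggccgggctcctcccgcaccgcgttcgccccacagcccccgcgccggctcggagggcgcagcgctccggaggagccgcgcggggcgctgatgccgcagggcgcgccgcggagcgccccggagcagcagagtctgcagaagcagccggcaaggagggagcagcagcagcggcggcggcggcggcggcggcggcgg
Acta2, chr19:34255324-34255623, minus strand: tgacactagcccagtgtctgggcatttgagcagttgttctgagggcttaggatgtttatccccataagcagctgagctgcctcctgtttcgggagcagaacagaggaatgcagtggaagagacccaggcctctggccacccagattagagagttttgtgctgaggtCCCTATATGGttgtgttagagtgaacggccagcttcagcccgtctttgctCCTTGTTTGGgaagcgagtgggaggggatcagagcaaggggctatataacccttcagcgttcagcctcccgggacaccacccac
The Acta2 window held 2 such boxes, CCCTATATGG from 84 to 75 bases and CCTTGTTTGG from 34 to 25 bases before the start, each with 1 mismatch, and the windows of the other 3 genes held none. Among all 32851 promoter windows of this length 9.98% held at least 1 box at this tolerance and 1.63% an exact one. For a list of 26 contractile genes, 21 of which matched, 7 of 27 windows did so (25.9%), 5 of them with an exact box. A match of letters is a description and not a bound site.

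All libraries were droplet libraries read as UMI counts. The terminal cells held 125077 UMIs in the GFP-low, 5216860 in the tdT-negative and 2304709 in the tdT-high library, with medians of 19117.5, 16775 and 19837 UMIs per cell, against 19459.5 and 22244 in MyoFB-Int and 19460.5 and 23762 in MyoFB-IMR of the 2 GFP-high libraries. Levels below are counts per 1e6 UMIs (CPM) summed over the cells of a class in a library. A count of 0 there allows up to 0.575 CPM in the tdT-negative and 1.3 CPM in the tdT-high terminal cells. Because each gate has 1 library and the classes were called from these same transcripts, no difference has a replicate check, no test was made, and the 95% intervals in brackets cover counting error only. Endothelial, epithelial and immune markers were at or near 0 in the terminal cells of both GFP-high libraries, and markers of other mesenchymal cells were not. Endothelial markers summed to 13.6 and 10.4 CPM with Cdh5, Kdr and Tie1 at 0, epithelial markers to 5.6 and 7.4 CPM with Cdh1, Krt18 and Nkx2-1 at 0, and immune markers to 14.2 and 10.8 CPM with Ptprc and C1qb at 0. A list of 11 pericyte markers summed to 550 and 1352 CPM, of which Postn made 122 and 963, with Higd1b at 0 in the tdT-negative and Ndufa4l2 at 0 in the tdT-high library. The 12 alveolar fibroblast markers summed to 410 and 795 CPM, of which Mfap4 made 311 and 676, with Ces1d and Slc7a10 at 0 in both. The 11 adventitial fibroblast markers summed to 275 and 610 CPM, of which Col14a1 made 125 and 404, with Ly6c1 at 0 in both. The 5 Schwann and neural markers summed to 107 and 64.7 CPM, mostly S100b. The part of these cells in the results was not tested. The libraries shared 4 cell barcodes, 0 of them on a terminal cell.

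The rule removed very different shares of the annotation in the 3 gates. It left out 17 of 23 MyoFB-Ter cells in the GFP-low, 6 of 303 in the tdT-negative and 79 of 190 in the tdT-high library. Hhip, which binds hedgehog ligands and dampens their signal, and Pdgfra are therefore given only as a description. The kept Pdgfra-free cells nearest the threshold had Hhip at 996, 992 and 955 CPM and the nearest cells left out had 1006, 1015 and 1089 CPM, so the boundary falls within a continuum: 27 Pdgfra-free cells with Hhip from 500 to under 1000 CPM were kept and 44 from 1000 to under 2000 CPM were left out. Among the kept cells Pdgfra was at 0 UMIs in 46 of 297 (15.5%, 11.6 to 20.1) in the tdT-negative library and in 65 of 111 (58.6%, 48.8 to 67.8) in the tdT-high library. Over MyoFB-Int the share was 4.38% and 11.2%, and over MyoFB-IMR 0.388% and 0.642%. At least 3 Pdgfra UMIs were seen in 146 tdT-negative and 15 tdT-high terminal cells. A cell with any Pdgfra UMI was kept at any Hhip level. So 25 tdT-negative and 19 tdT-high kept cells held Hhip at 1000 CPM or more, up to 3411 and 9900 CPM. The terminal cells made up 9.09% (3.41 to 18.7) of the myofibroblasts in the GFP-low, 11.2% (10.0 to 12.4) in the tdT-negative and 7.61% (6.30 to 9.10) in the tdT-high library, shares that the sort gates help to set.

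**Figure D1:**
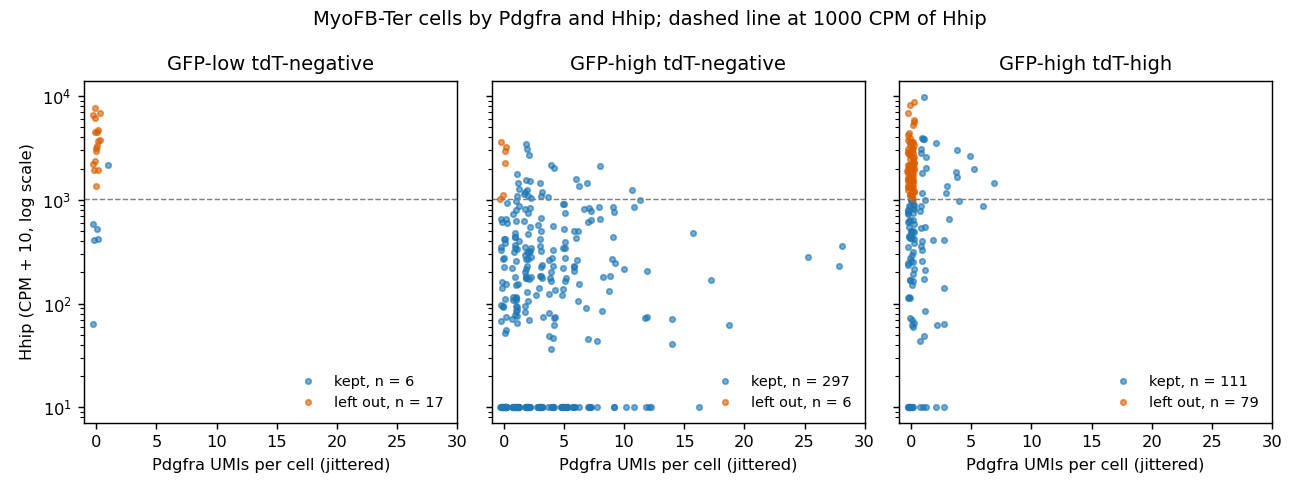
Each point is a MyoFB-Ter cell, with its Pdgfra UMIs on the horizontal axis and its Hhip level in CPM plus 10 on a log vertical axis, by gate. Orange cells (17, 6 and 79) are left out, blue cells (6, 297 and 111) are kept; in the tdT-high gate most kept cells sit at 0 Pdgfra UMIs.

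The 4 markers of the label were present in both GFP-high libraries, with Fgf18 and Aspn higher in the terminal cells than in MyoFB-Int and MyoFB-IMR. Fgf18 stood at 35.0 CPM in MyoFB-IMR, 70.4 in MyoFB-Int and 122 in terminal cells of the tdT-negative library, and at 49.5, 101 and 157 CPM in the tdT-high library. It rests on few UMIs per cell: the lowest terminal cell held 0, the median 96.4 and the highest 691 CPM in the tdT-negative library, and 0, 136 and 916 in the tdT-high library. After thinning every cell to 5000 UMIs, 39.7% (34.1 to 45.5) and 46.8% (37.3 to 56.6) of terminal cells held a Fgf18 UMI, against 2.44% of annotated adventitial fibroblasts (AdvFB) in the tdT-negative library. These adventitial cells held a median of 24677.5 UMIs, so they were read more deeply. Eln, the elastic core of the fibre, went 3239, 7131 and 10547 CPM in the tdT-negative and 6507, 15714 and 16247 CPM in the tdT-high library. Terminal cells thus stood further above MyoFB-Int in the first than in the second, by less than 2-fold in both. Acta2 did not follow this order: it stood at 1008, 1596 and 1465 CPM in the tdT-negative and 840, 923 and 1227 CPM in the tdT-high library. The Acta2 level of the terminal cells was thus 1.09-fold below MyoFB-Int in the first and 1.33-fold above it in the second.

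Of the 4 markers, Aspn differed most between the classes. It stood at 8.59, 268 and 1637 CPM in MyoFB-IMR, MyoFB-Int and terminal cells of the tdT-negative library and at 58.8, 1673 and 7452 CPM in the tdT-high library. Per cell, terminal cells ranged from 0 through a median of 698 to 10168 CPM in the tdT-negative library, where 77.1% held a UMI (62.0% thinned), and from 1153 through 7462 to 16743 CPM in the tdT-high library, where all 111 did. The terminal cells of the tdT-negative library therefore include many cells with little or no Aspn, while no tdT-high terminal cell was without it. MyoFB-IMR had an Aspn UMI in 9.5% and 35.5% of cells. The MyoFB-Ter cells that the rule left out held Aspn too, with medians of 4088 CPM over 6 tdT-negative and 6791 CPM over 79 tdT-high cells, and Fgf18 at medians of 173 and 94.5 CPM, so neither gene is particular to the cells kept. Aspn was also abundant in the adventitial fibroblasts of the tdT-negative library (median 575 CPM). The contractile markers differed less: transgelin (Tagln), an actin-binding protein, stood at 1238, 2030 and 1985 CPM and 1165, 1468 and 1417 CPM, and smooth muscle myosin (Myh11) at 702, 884 and 795 CPM and 693, 722 and 788 CPM in that order.

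**Figure D2:**
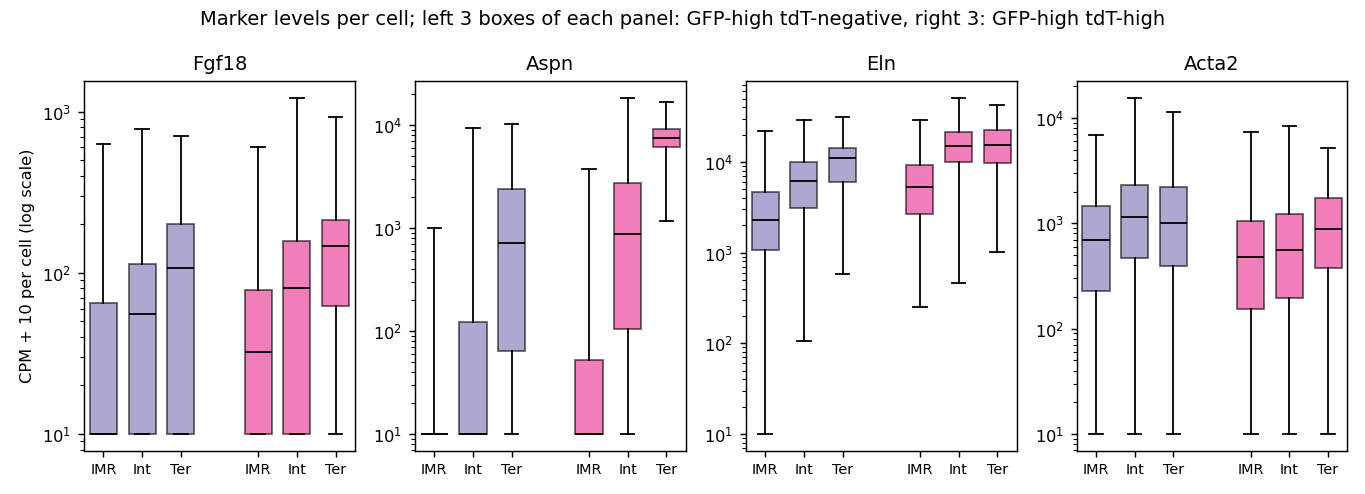
Boxes give the lower quartile, median and upper quartile of each cell's CPM plus 10 on a log axis, with whiskers to the lowest and highest cell, for MyoFB-IMR, MyoFB-Int and terminal cells (Ter) of the tdT-negative (violet) and tdT-high (pink) GFP-high libraries. Aspn in tdT-high terminal cells starts at 1153 CPM, above the median of every other class, while Acta2 overlaps throughout.

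The genes that stood apart from MyoFB-Int included matrix and cell-contact genes in both directions. Of 3998 genes counted in the tdT-negative library (on the higher side, 50 CPM or more and detection in 10% of cells or more), 35 were higher by 2-fold or more (0.875%) and 20 lower (0.5%). In the tdT-high library 124 of 3950 were higher (3.14%) and 103 lower (2.61%). The higher genes shared by both libraries numbered 25, which is 71.4% of the first set and 20.2% of the second, and the shared lower genes 10 (50.0% and 9.71%). These counts describe how the annotation divides the cells. Gja1 was 7.06-fold (6.08 to 8.21) and 6.59-fold (6.06 to 7.18) higher, from 11.4 to 80.1 CPM in the tdT-negative and from 66.0 to 435 CPM in the tdT-high library. Col14a1, a collagen that sits on other fibrils, was 3.36-fold and 3.51-fold higher, and Prss12, a serine protease, 2.91-fold and 3.01-fold.

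The size of some ratios depended on the library. Periostin (Postn), a matrix protein of wounds and tendons, was 3.32-fold higher in the tdT-negative library, where it reached 122 CPM in terminal cells, and 8.50-fold higher in the tdT-high library, where it reached 963 CPM. Versican (Vcan), a large proteoglycan, was 3.02-fold and 7.55-fold higher, at 110 and 765 CPM. The ratio of Thrb, the thyroid hormone receptor beta, was larger in the tdT-negative library, 5.92-fold against 3.12-fold, as was that of the actin organiser Fhod3, 4.71-fold against 2.80-fold. On the lower side the collagen Col24a1 was 2.70-fold and 3.07-fold lower, Cdh11, a cadherin of mesenchymal cells, 2.61-fold and 5.82-fold, Mgp, an inhibitor of calcification, 2.30-fold and 4.94-fold, and the Wnt effector Lef1 2.03-fold and 2.68-fold lower. Cd34 and H2BGFP were 2.31-fold and 2.08-fold lower in the tdT-negative and 10.7-fold and 7.86-fold lower in the tdT-high library.

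**Figure D3:**
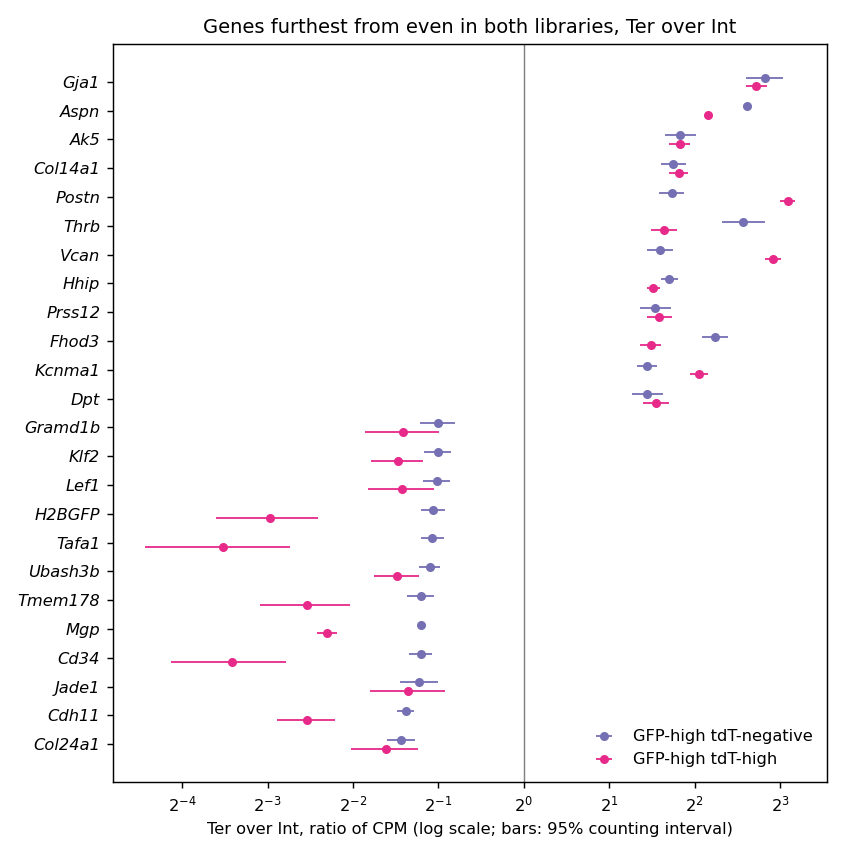
Ratios of CPM in terminal cells over MyoFB-Int for the 12 highest and 12 lowest genes by the smaller absolute log2 ratio of the 2 GFP-high libraries, on a log axis with 95% counting intervals. Gja1 lies at 7.06-fold and 6.59-fold and Aspn at 6.10-fold and 4.45-fold, with Postn and Vcan further right in the tdT-high library, at 8.50-fold and 7.55-fold; Cd34 and Tafa1 lie far lower in the tdT-high library.

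Against MyoFB-IMR the differences were larger. In the tdT-negative library 165 of 4155 genes were higher by that fold (3.97%) and 147 lower (3.54%), and in the tdT-high library 311 of 4146 higher (7.5%) and 290 lower (6.99%). Of the higher genes 132 were shared, which is 80.0% and 42.4% of the 2 sets. Aspn was 191-fold (164 to 223) and 127-fold (117 to 137) higher. Rgs5, a dampener of G protein signals found in pericytes and vascular smooth muscle, stood at 1.13 and 92.0 CPM and at 11.2 and 380 CPM in MyoFB-IMR and terminal cells of the 2 libraries. Col12a1, a collagen of tendon-like tissue, was 15.5-fold and 16.7-fold higher. Bdnf, a neurotrophin, was 33.0-fold and 15.2-fold higher. Stc1, a secreted glycoprotein, ranked first among the lower genes, with 190 CPM in MyoFB-IMR and 6.52 CPM in terminal cells of the tdT-negative library, and 112 and 2.60 CPM in the tdT-high library. The stretch-gated channel Piezo2 stood at 377 and 38.5 CPM, and at 248 and 2.60 CPM, in the same order. Pdgfra itself stood at 30.5% of the MyoFB-IMR level in the tdT-negative and 7.03% in the tdT-high terminal cells, H2BGFP at 24.9% and 4.25%.

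Some genes of elastic fibres and of their cross-linking were, like Eln, higher in terminal cells than in MyoFB-IMR. In the lists, a member counts as higher or lower from 1.5-fold with at least 10 UMIs, and against MyoFB-IMR 7.22% of all measured genes were higher and 16.3% lower in the tdT-negative library, and 10.4% and 25.7% in the tdT-high library. Of 16 elastic fibre genes measured, 7 were higher and 2 lower in the first (median log2 ratio 0.24, all measured genes -0.09) and 7 higher and 1 lower in the second (0.33, all genes -0.17). Lysyl oxidases, the enzymes that cross-link elastin and collagen, were higher for 4 of 4 and 3 of 5 (medians 1.90 and 1.56): Loxl2 stood at 166 CPM in MyoFB-IMR and 620 in terminal cells of the tdT-negative, and 278 and 820 CPM in the tdT-high library. Against MyoFB-Int 0 of 5 lysyl oxidases passed 1.5-fold in either library. The microfibril protein Mfap4 reached 311 and 676 CPM in terminal cells (1.92-fold and 2.02-fold over MyoFB-Int) and Mfap5 31.2 and 186 CPM. Of 29 collagens, 12 were higher and 5 lower against MyoFB-IMR in the tdT-negative and 16 higher and 6 lower in the tdT-high library, with Col1a1 at 1103 and 1877 CPM in terminal cells against 550 and 873.

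Among the matricellular proteins and proteases, members went both ways. The 20 and 21 measured matricellular genes had 14 and 13 higher and 3 and 2 lower members than MyoFB-IMR (medians 0.88 and 0.89). Of all genes measured against MyoFB-IMR, 7.22% and 10.4% were higher and 16.3% and 25.7% lower. The protease inhibitor Serpine2 was higher than MyoFB-Int by 1.88-fold and 1.70-fold, at 779 and 1444 CPM, while the serine protease Htra1 was 1.99-fold and 2.53-fold lower, at 599 and 214 CPM. Of the small leucine-rich proteoglycans besides Aspn, Omd followed it upward (4.61-fold and 3.62-fold over MyoFB-Int) and Prelp lay lower (1.89-fold and 3.34-fold). Ogn, which shares their family, was 3.15-fold higher than MyoFB-Int in the tdT-negative library (58.4 to 184 CPM) and 1.14-fold lower in the tdT-high library (164 to 144 CPM). Basement membrane genes were lower for 5 and higher for 3 of 13 against MyoFB-IMR in the tdT-negative library, and lower for 7 and higher for 2 in the tdT-high library, with the laminin Lamc3 at 6.52 and 1.30 CPM in terminal cells against 50.7 and 31.8 CPM.

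The contractile genes were divided. Against MyoFB-Int 3 of 26 were higher and 1 lower in the tdT-negative library (list median -0.01), and 6 higher and 1 lower in the tdT-high library (median 0.20). All genes measured in those 2 comparisons had 4.06% and 8.26% higher and 5.33% and 14.5% lower. Cnn1, the smooth muscle protein calponin, was 1.78-fold higher in the tdT-negative and 7.07-fold higher in the tdT-high library, at 31.1 and 138 CPM. Myocardin (Myocd), a coactivator of smooth muscle genes, stood at 48.9, 90.3 and 176 CPM in the tdT-negative and 60.0, 139 and 314 CPM in the tdT-high library over MyoFB-IMR, MyoFB-Int and terminal cells. Actn1, which anchors actin filaments, ran the opposite way and was 1.87-fold lower than MyoFB-Int in both. A list of airway and vascular smooth muscle markers summed to 5588 and 5712 CPM in terminal cells, against 5593 and 4443 in MyoFB-Int and 3578 and 3546 in MyoFB-IMR. Acta2, Tagln, Myh11 and Des are on that list and also on the lists of myofibroblast or contractile genes. In the terminal cells of each library 10 of its 12 markers stood at 10 CPM or more, with Pln at 3.64 and 3.04 CPM and Sost at 0 and 0.434 CPM. Of 11 measured, 3 were higher and 0 lower than in MyoFB-Int in the tdT-negative library, 5 and 0 in the tdT-high library, and against MyoFB-IMR 8 and 0, and 6 and 0. Of all genes measured against MyoFB-IMR, 7.22% and 10.4% were higher and 16.3% and 25.7% lower. The part of smooth muscle cells in the marker values was not tested.

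Of the signalling genes, the fibroblast growth factor list had 8 lower and 2 higher of 21 members against MyoFB-Int in the tdT-negative library, and 9 lower and 5 higher in the tdT-high library. All genes measured in these 2 comparisons had 5.33% and 14.5% lower and 4.06% and 8.26% higher. The lower members of the list included negative feedback and target genes: Spry4 was 4.91-fold and 3.72-fold lower, the transcription factor Etv5 3.77-fold and 4.80-fold lower, and Etv1 1.92-fold and 4.61-fold lower. The ligand Fgf18 was higher. The receptor Pdgfrb was 1.35-fold and 1.38-fold lower and the ligand Pdgfd 2.01-fold and 2.95-fold higher, reaching 48.1 and 210 CPM. Wnt5a, a ligand that drives cell shape changes, stood at 791 and 978 CPM, 1.33-fold and 1.12-fold above MyoFB-Int, and Lgr6, a receptor of the R-spondins, 2.68-fold and 1.99-fold above it. The transcription factor Scx, known for tendon, stood at 24.5 and 179 CPM (6.30-fold and 9.95-fold over MyoFB-Int) and Prrx1 at 22.0 and 126 CPM.

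Cell contact genes, apart from Gja1, included several cadherins. Cdh4 stood 2.66-fold and 1.86-fold above MyoFB-Int, and Pcdh7 2.36-fold and 3.36-fold, while Cdh11 lay below. The list had 6 of 18 and 7 of 19 members higher and 1 and 4 lower. Of all genes measured against MyoFB-Int, 4.06% and 8.26% were higher and 5.33% and 14.5% lower. Ion channels likewise ran both ways: against MyoFB-Int 6 were higher and 6 lower of 35 in the tdT-negative and 15 higher and 8 lower in the tdT-high library. The potassium channel Kcnma1 was 2.72-fold and 4.15-fold higher, the calcium channel subunit Cacna2d3 2.48-fold and 2.17-fold higher, and the cation channel Trpc6 3.36-fold and 2.95-fold lower. Immediate early genes, which also respond to tissue dissociation, were lower than in MyoFB-Int for 8 of 29 and 7 of 28 members and higher than in MyoFB-IMR for 12 of 29 and 16 of 28. Of all genes measured against MyoFB-IMR, 7.22% and 10.4% were higher. Cell cycle genes of G2 and M phases were lower than in MyoFB-Int for 5 and 14 of 26 and higher for 0 and 2. Over all measured genes 5.33% and 14.5% were lower. In the tdT-high library 4 of the 26 were at 0 on 1 side. The list median there was -0.63, and -0.21 with these set to the count that a 0 allows. Mki67 UMIs were seen in 23.9% of tdT-negative and 9.91% of tdT-high terminal cells (9.76% and 2.70% after thinning), against 30.4% and 25.5% in MyoFB-Int (11.0% and 8.86%) and 2.74% (0.915%) of adventitial fibroblasts.

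**Figure D4:**
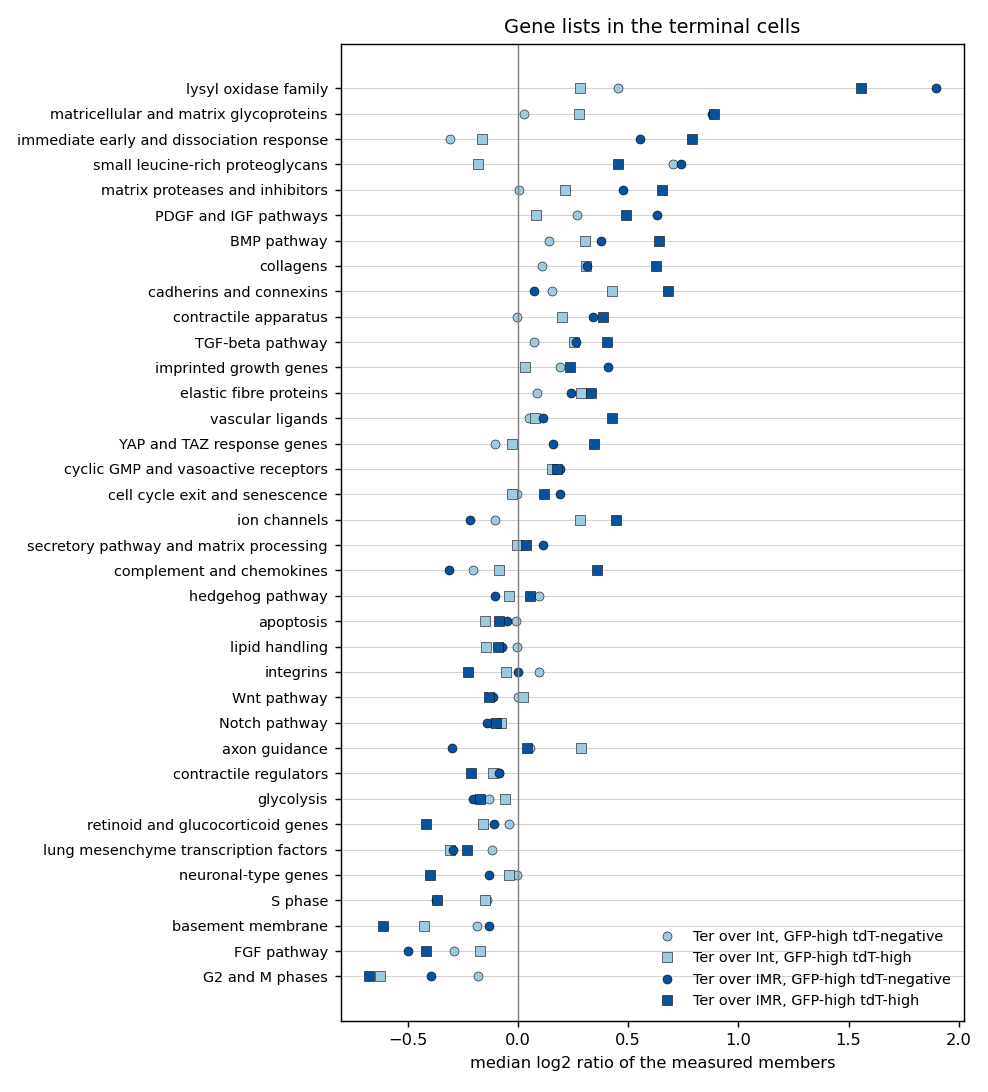
Median log2 ratio over the measured members of 36 gene lists, for terminal cells (Ter) over MyoFB-Int (light) and over MyoFB-IMR (dark), with circles for the tdT-negative and squares for the tdT-high library. The lysyl oxidase family lies furthest right, at 1.90 and 1.56 against MyoFB-IMR. In the tdT-high library the G2 and M phase list lies furthest left, at -0.63 over MyoFB-Int and -0.68 over MyoFB-IMR. With genes at 0 set to the count that a 0 allows, these 2 medians are -0.21 and -0.57.

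The 2 GFP-high libraries gave terminal cells that differed from each other in many genes, which is a comparison on the sort gate and not on the annotation. Of 4079 genes 152 were higher by 2-fold or more (3.73%) and 104 lower (2.55%) in the tdT-high terminal cells. The library, the dissociation, the sort and any difference between pups cannot be told apart from the gate. Terminal cells with Xist and no Y-linked UMIs numbered 68 in the tdT-negative and 36 in the tdT-high library. Those with Y-linked and no Xist UMIs numbered 180 and 53, so both libraries held cells of both sexes. Median mitochondrial shares were 2.88% and 3.47%, and the proportion of Pdgfra-free cells differed as given above, so the main values are also given within cells that hold Pdgfra UMIs (251 tdT-negative and 46 tdT-high cells) and within cells at 0 (46 and 65). Neither set is matched between the gates. In the first, 54 of 251 and 27 of 46 cells held 1 Pdgfra UMI. From the second, the rule had left out 6 tdT-negative and 79 tdT-high cells. Within the first set 144 of 4117 genes were higher and 101 lower, and within the second 125 and 133 of 4140. The reporter followed the sort: TDT stood at 9.20 and 81.6 CPM, 8.87-fold (6.43 to 12.4) higher in the tdT-high terminal cells, and the ROSA locus transcript Gt(ROSA)26Sor at 11.1 and 103 CPM. CreERT2 stood at 40.3 and 44.3 CPM and Fgf18 at 122 and 157 CPM. H2BGFP was lower in the tdT-high cells although both were sorted as GFP-high, at 84.7 and 10.8 CPM.

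Several genes at low levels in MyoFB-IMR were higher in the tdT-high terminal cells. Fgf9, a growth factor for lung mesenchyme, stood at 11.3 CPM in tdT-negative and 167 CPM in tdT-high terminal cells, 14.7-fold (11.2 to 19.7) higher, and 16.8-fold (11.5 to 25.3) higher within cells holding Pdgfra UMIs. Lrrc15, a membrane protein of activated fibroblasts, stood at 11.3 and 159 CPM, 14.1-fold higher and 14.9-fold in the Pdgfra set. Both were carried by many cells: Fgf9 had a UMI in 78 of 111 tdT-high cells and Lrrc15 in 84, and the 5 cells with most UMIs held 22.1% and 18.3% of them. Grem1, which blocks bone morphogenetic proteins, stood at 2.88 and 61.6 CPM, with 45 of 111 cells holding a UMI. Otof, which acts in vesicle release at the ear's hair cells, stood at 2.11 and 71.2 CPM, 33.7-fold higher (18.4 to 68.9), in 35 of 111 tdT-high and 11 of 297 tdT-negative cells. The 5 tdT-high cells with most UMIs held 46.5% of those of Grem1 and 40.9% of those of Otof. In MyoFB-IMR of the 2 libraries Fgf9 had a UMI in 0.291% and 1.5% of cells, Lrrc15 in 0.775% and 1.71%, and Otof in 2.03% and 3.43%.

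For other genes 5 cells held most of the UMIs in each library. The potassium channel Kcnq5 stood at 8.24 and 177 CPM, but 24 of 111 tdT-high cells held a UMI and the 5 highest held 59.6% of its UMIs. In the tdT-negative library 18 of 297 cells held a Kcnq5 UMI and the 5 highest held 69.8%. Pcdh15, a cadherin of hair cells, was 12.4-fold higher over all cells and 3.14-fold higher in the Pdgfra set, but lower in cells with at least 3 Pdgfra UMIs (log2 ratio -0.44), with 59.1% of its tdT-high UMIs in 5 cells. Over Otof, Kcnq5, Fgf9 and Lrrc15, a set picked after these values were seen, at least 2 of the 4 genes were detected in 17 of 297 tdT-negative terminal cells (5.72%, 3.37 to 9.01) and 79 of 111 tdT-high terminal cells (71.2%, 61.8 to 79.4), against 0.906% and 7.37% of MyoFB-Int. The share was 4.78% and 65.2% within cells holding Pdgfra UMIs, and 10.9% and 75.4% within cells at 0. Among the tdT-high terminal cells 82.9% (74.6 to 89.4) had at least 1 of the 4 after thinning, and 12.8% (9.22 to 17.1) of the tdT-negative.

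On the lower side in the tdT-high terminal cells stood Vsnl1, a calcium sensor, at 126 and 6.51 CPM, 19.3-fold lower (11.6 to 34.7), and Cd34, a surface glycoprotein of progenitors and adventitial fibroblasts, at 94.9 and 8.68 CPM, 10.9-fold lower. Both were also lower by 15.2-fold and 10.2-fold in cells holding Pdgfra UMIs. Tafa1, a secreted factor, stood at 93.5 and 5.64 CPM, and Plxna2, a semaphorin receptor, at 155 and 29.9 CPM. Among the lists, collagens had 10 of 24 members at least 1.5-fold higher and 0 lower (median 0.53, all measured genes -0.11, with 9.44% of all genes higher and 15.2% lower), cadherins and connexins 9 of 16 higher and 2 lower (0.81) and matricellular genes 9 of 20 higher and 2 lower (0.55). G2 and M phase genes had 8 of 15 lower and 0 higher (-0.64, and -0.51 with genes at 0 set to the count that a 0 allows). Eln was 1.54-fold (1.52 to 1.56) and Aspn 4.55-fold (4.43 to 4.67) higher in the tdT-high cells, and Acta2 1.19-fold (1.14 to 1.25) lower. Aspn was 5.27-fold higher in the cells with Pdgfra UMIs and 2.20-fold higher in those without.

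**Figure D5:**
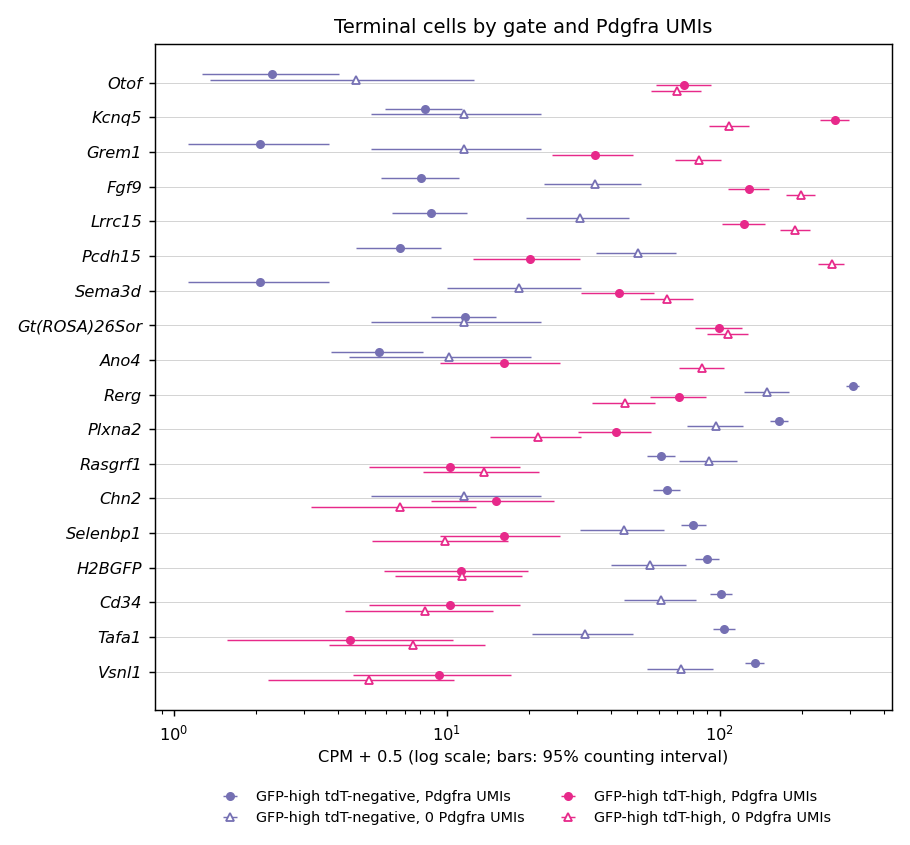
Levels of the genes named for the gate comparison (Pdgfra, which the sets are built on, is left out) in terminal cells with Pdgfra UMIs (circles) and at 0 Pdgfra UMIs (triangles), in the tdT-negative (violet) and tdT-high (pink) libraries, as CPM plus 0.5 on a log axis with 95% counting intervals. Otof, Fgf9 and Lrrc15 stand higher and Vsnl1, Cd34 and H2BGFP lower in the tdT-high library in both sets.

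Within a library the terminal cells were not uniform. Per cell, Acta2 and Tagln were high in the same cells (Spearman rho 0.85 in the tdT-negative and 0.79 in the tdT-high library, over 297 and 111 cells that share a library and a normalisation), while Acta2 and Eln had rho of -0.26 and -0.26. Aspn and Eln had rho of 0.39 and -0.11, and Aspn and Gja1 0.44 and 0.24. Aspn and Pdgfra had rho of -0.30 and -0.22, but the rule that chose the cells used Pdgfra. The rule left out Pdgfra-free cells with much Hhip, and these held Aspn too. The correlation of Aspn with Pdgfra thus describes only the cells kept, and the part of the rule in it was not tested. The correlations of Aspn with the total UMIs of a cell were 0.00016 and -0.24, and no test was made of any of them. Gja1 in tdT-negative terminal cells was at 0 in most cells (38.4% with a UMI), against 98.2% of tdT-high terminal cells. MyoFB-IMR, read more deeply, had a Gja1 UMI in 3.97% and 7.92% of cells. Postn had a UMI in 40.1% and 90.1% of terminal cells (14.6% and 27.8% of MyoFB-IMR), and Vcan in 50.2% and 91.9% (29.7% and 35.8%).

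The 6 terminal cells of the GFP-low gate are given as levels only. Aspn stood at 4757 CPM (4382 to 5155) and Acta2 at 3854 CPM (3517 to 4214), above the GFP-high terminal cells for Acta2, and Eln at 3350 CPM (3037 to 3687), below them. Myh11 stood at 2502 CPM and Gja1 at 536 CPM. The airway and vascular smooth muscle markers summed to 15311 CPM in these cells, against 5294 in MyoFB-Int and 3817 in MyoFB-IMR of the same gate, with Sost and Pln at 0. The alveolar myofibroblast markers summed to 22562, 19967 and 10855 CPM in the same order. Acta2, Tagln and Myh11 are on both lists, so the sums are not independent. Pdgfra, H2BGFP and TDT had 1 UMI each, and Cd34 and Vsnl1 had none.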

How the data were processed

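The deposited table holds raw UMI counts for 31730 genes and 6142 cells, and the authors' cell table gives each cell's gate, annotation, total UMI count and percent of mitochondrial UMIs. Per the submitters' processing notes, the authors used Cell Ranger 7.0.0 and the mm10 genome. How cells were filtered and annotated was not given in the sources used here. For each class in each library the UMIs of its cells were added up and scaled to CPM. The measure for a gene was log2 of the ratio between CPM values, each plus 1, and folds are ratios of CPM. Intervals are exact 95% Poisson, conditional binomial or Clopper-Pearson intervals and cover counting error only. A 0 was taken to allow up to 3 counts. Each gate has 1 library, so there was no test.

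Genes were counted as higher or lower from 2-fold, if the higher side had 50 CPM or more and detection in 10% of its cells or more. List members needed 10 UMIs and 1.5-fold. Named genes were the 12 highest and 12 lowest by the smaller absolute log2 ratio of the 2 GFP-high libraries with the same sign in both, and 10 each way by gate, without haemoglobin, mitochondrial, ribosomal protein, unnamed or sex-linked genes. Of the genes picked by gate, 1 is not reported here. Reporter and marker genes were always given, and members of 36 gene lists and 14 marker lists were named by level or ratio. The cells, the lists and the rules were chosen with earlier results of these data known. No doublet caller was run. Sequences came from RefSeq and GRCm38.p6. The ratio calculation was tested on simulated data. Computation used Python 3.11.15 with pandas 2.3.3, scipy 1.17.1 and numpy 2.4.6. The packages edgeR 4.0.16 and DESeq2 1.42.0 gave scaling factors only. Alternatives covered scaling (TMM, DESeq2 size factors, mean CPM per cell, totals without mitochondrial, ribosomal and haemoglobin genes), thinning, pseudocount, filters on genes and cells, the Hhip threshold, Pdgfra UMIs, and cells with Xist or Y-linked UMIs.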

Additional observations from a re-analysis of the deposited data

Results flagged for a closer look

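Acta2 and Myh11 stood on opposite sides of MyoFB-Int in the 2 GFP-high libraries. The log2 ratio of terminal cells over MyoFB-Int was -0.12 for Acta2 in the tdT-negative and 0.41 in the tdT-high library, and for Myh11 -0.15 and 0.13. Against MyoFB-IMR the median of the ion channel list was -0.22 in the tdT-negative and 0.44 in the tdT-high library, and that of the complement and chemokine list, with 13 and 8 members measured, -0.31 and 0.36. Each gate has 1 library, so none of these differences was tested.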

How the results depend on the processing

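With a minimum of 10 CPM the genes at least 2-fold higher and lower over MyoFB-Int were 86 and 56 of 9393 in the tdT-negative library. In the tdT-high library they were 296 and 227 of 9519. Over MyoFB-IMR they were 327 and 391 of 9716 in the tdT-negative and 616 and 781 of 9977 in the tdT-high library. Between the gates they were 366 and 307 of 9607. Without a filter on low genes these counts, each of 31730, were 189 and 153, 704 and 793, 581 and 1090, 1166 and 2319, and 1048 and 968. In cells with Xist and no Y-linked UMIs (68 and 36 terminal cells) the counts over MyoFB-Int in the tdT-negative library were 68 and 42 of 4099. In the tdT-high library 155 of 4076 genes were lower. In terminal cells with at least 3 Pdgfra UMIs, chosen after seeing the data (146 and 15 cells), the first pair was 23 and 11 of 4015. There 181 of 4245 genes were lower in the tdT-high than in the tdT-negative gate. Thinning to 5000 UMIs gave 163 of 4164 genes lower between the gates. A lower minimum counts more genes, and the cause of the other shifts was not tested.

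By the main setting, lists with a median at least 1.5-fold higher and lower numbered 1 and 0 over MyoFB-Int in the tdT-negative library, 0 and 1 in the tdT-high library, 4 and 0 and 7 and 2 over MyoFB-IMR, and 1 and 1 between the gates. Higher lists between the gates became 2 under TMM scaling, the mean of each cell's CPM, cells with Xist UMIs only, cells with Y-linked UMIs only, without Pdgfra-free terminal cells, and without terminal cells at 1000 Hhip CPM or more (the last chosen after seeing the data), 3 under DESeq2 size factors and with at least 3 Pdgfra UMIs, and 4 under thinning. Lower lists between the gates became 2 in cells with Xist UMIs only and in cells with Y-linked UMIs only. Lower lists over MyoFB-IMR in the tdT-high library became 1 under TMM scaling, DESeq2 size factors, cells under 5% mitochondrial UMIs and without Pdgfra-free terminal cells, 0 with a pseudocount of 5, and 4 with at least 3 Pdgfra UMIs. Lower lists over MyoFB-Int in the tdT-high library became 3 with at least 3 Pdgfra UMIs and 2 in cells with Xist UMIs only, and lower lists over MyoFB-IMR in the tdT-negative library became 2 under thinning. With genes at 0 set to the count that a 0 allows, an alternative chosen after seeing the data, no list was lower by that fold in any comparison (0 of the 2 over MyoFB-IMR in the tdT-high library): the G2 and M phase median became -0.21 over MyoFB-Int and -0.57 over MyoFB-IMR in the tdT-high library and -0.51 between the gates, and basement membrane -0.57 over MyoFB-IMR. DESeq2 size factors moved the median of the counted genes over MyoFB-IMR in the tdT-high library from -0.07 to 0.03.

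The share of terminal cells among myofibroblasts was 34.8% in the GFP-low and 13.0% in the tdT-high library with all MyoFB-Ter cells, 6.24% and 10.3% in the tdT-high library with the Hhip threshold at 500 and 2000, and 1.52%, 9.44% and 3.16% in the GFP-low, tdT-negative and tdT-high libraries without any Pdgfra-free cell. Pcdh15 turned to a log2 ratio of -0.44 between the gates with at least 3 Pdgfra UMIs, the only reversal among the ratios of named genes and list medians past the fold used. Over all alternatives, 672 ratios of named genes lay outside the counting interval of the main setting and 2234 within it. For list medians 87 lay outside and 3189 within the median bounds of their members. Leaving out the 5% of cells with most UMIs, the filter against doublets, moved none of these counts by over 1.5 times. No paired analysis was possible because each gate has 1 library.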
